A study of Danio rerio with 2 samples.

Results

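The membrane traffic and endolysosome genes described here were chosen by symbol, as rows whose name starts with a Rab, TBC1D, VPS, sorting nexin, SEC, COPI, clathrin adaptor, exocyst, syntaxin, VAMP, TRAPP, Arf, CHMP, V-ATPase, TPCN, LAMP, cathepsin, ZDHHC, golgin or TMED stem, and whose mean over both deposited tables is at least 1. This gave 81 genes out of 3524 with a mean of at least 1 and out of 4591 listed. A further 6 rows matched by symbol and lay under that mean. The nearest inside was rab11fip4b, at 0.89 with the standard and 1.16 with the phf14 morpholino. The nearest outside was vps41, at 0.88 and 1.02. No gene with an Arf stem and no SEC gene of the protein translocation channel was among the 81 or the 6. The deposited tables hold only a part of the genes, so a gene missing from them has no value here. Such a gene is not shown to be unexpressed. Shares of all genes below refer to the 3524.

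Membrane traffic carries proteins and lipids between the endoplasmic reticulum, the Golgi apparatus, endosomes, lysosomes and the cell surface in coated vesicles. Small GTPases of the Rab family mark each compartment, TBC domain proteins switch Rabs off, tethers such as golgins, TRAPP and the exocyst hold vesicles at their target, and SNARE proteins fuse them with it. Sorting nexins, VPS proteins and the ESCRT-III polymers of CHMP proteins sort cargo at endosomes, the V-ATPase acidifies endosomes and lysosomes, and cathepsins digest protein inside them. In the blastula these pathways serve, among other things, the secretion and uptake of signalling proteins and the polarity of the outer epithelium.

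The RNA came from whole Tuebingen zebrafish embryos collected at 4.7 hpf, when the zygotic genome has recently become active. Embryos had received 5 ng of a morpholino, a synthetic antisense oligomer, at the 1-cell stage, and the control and test groups differed in whether this was the standard or the phf14 morpholino. PHF14 is a histone H3 binding chromatin protein, and the series title concerns its part in zygotic genome activation. There is 1 library per group, so every difference below is a difference between 2 libraries with no replicate error, no SD and no p-value, and the sources used here do not give how many embryos each library holds.

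Values are the authors' normalised expression signal, whose scale and length correction are not stated, so levels are compared between libraries and not between genes. The log2 ratio is log2(value + 1) in the phf14 morpholino library minus the same in the standard morpholino library, which understates differences of genes with low values. A gene is counted as past 1.5-fold or 2-fold on this scale. Where values come in pairs, the standard morpholino library comes first, and the log2 ratio follows in parentheses. The listed values sum to 75675 and 71136 in the standard and phf14 morpholino libraries, sequencing depth is unknown, and phf14 itself was not analysed here, so knockdown could not be checked. The median log2 ratio of all 3524 genes was 0.11, so a ratio between 0 and 0.11 lies below that of the median gene. The whole-embryo label was set against 4 marker lists. Listed members numbered 16 of 23 for the enveloping layer and 9 of 15 for the yolk syncytial layer. For blastomeres with active zygotic genes 14 of 18 were listed, and for oocyte supplied transcripts 10 of 18. None of these was at 0 in either library. Zeros were rare among all 3524 genes: the standard morpholino library held 2 and the phf14 library 1. Marker values above 0 therefore could not decide whether the label holds.

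Most of the traffic genes had slightly higher values in the phf14 morpholino library, and those past 1.5-fold were nearly all on that side. Of the 81 genes, 59 were higher, 21 lower and 1 equal. The share higher was 72.8%, against 62.3% of all genes, and the share lower was 25.9%, against 37.2%. Their median log2 ratio of 0.19 corresponds to 1.14 on the value + 1 scale and lies 0.08 above the median gene. Of the 81, 49 (60.5%) lay above the median gene, as 50% of all genes do by definition, and 32 lay below it.

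Past 1.5-fold stood 10 genes higher (12.3%, against 4.97% of all genes) and 1 gene lower (1.23%, against 2.87%). Past 2-fold stood 1 gene higher (0.341% of all genes) and 0 lower (0.482%). The balance depended on the scaling. With all ratios centred on the median gene, 7 traffic genes were past 1.5-fold higher (8.64%, against 2.36% of all genes) and 2 lower (2.47%, against 4.97%). A trimmed mean factor gave 6 and 3 genes, with 2.16% and 5.19% of all genes past the same fold. Centring on genes of like level gave 6 and 4, with 2.61% and 5.08%. The genes higher under the values as deposited and all 3 of these scalings were zdhhc20b, tpcn2, chmp7 and vps9d1, and the gene lower under all of them was rab25a.

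The traffic genes were also set against cut levels of all genes. Of the 81 genes, 29 (35.8%) lay above the level that 25% of all genes exceed, a log2 ratio of 0.31, and 14 (17.3%) above the level that 10% exceed, 0.48. Both counts include the 10 genes past 1.5-fold higher, so they do not show an excess apart from those genes. At the other end, 11 (13.6%) lay below the lowest 25% of all genes and 5 (6.17%) below the lowest 10%. The 43 traffic genes with a mean of at least 5 had a median of 0.19, against 0.07 for all genes of that level, and the 38 with lower means had 0.20, against 0.14. In 10 finer bins of level the order was not the same throughout. In the bin with the most traffic genes, 15, their median was 0.08, against 0.14 for all genes of the bin, and in a bin of 8 it was -0.05, against 0.15.

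**Figure D1:**
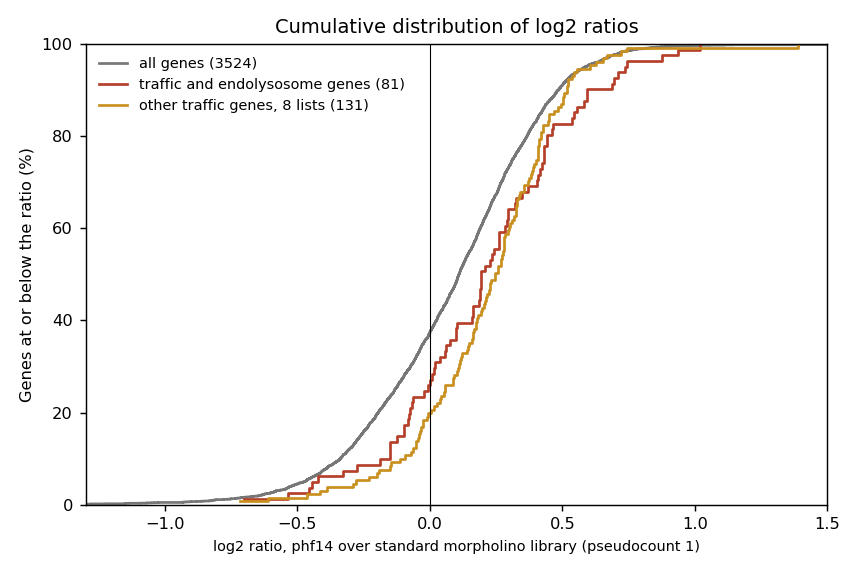
Cumulative share of genes (percent, vertical axis) by log2 ratio of the phf14 over the standard morpholino library (horizontal axis) for all 3524 genes, the 81 traffic and endolysosome genes and 131 other traffic genes from 8 lists. Both traffic curves lie to the right of all genes over the middle of the range, with medians of 0.19 and 0.25 against 0.11.

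**Figure D2:**
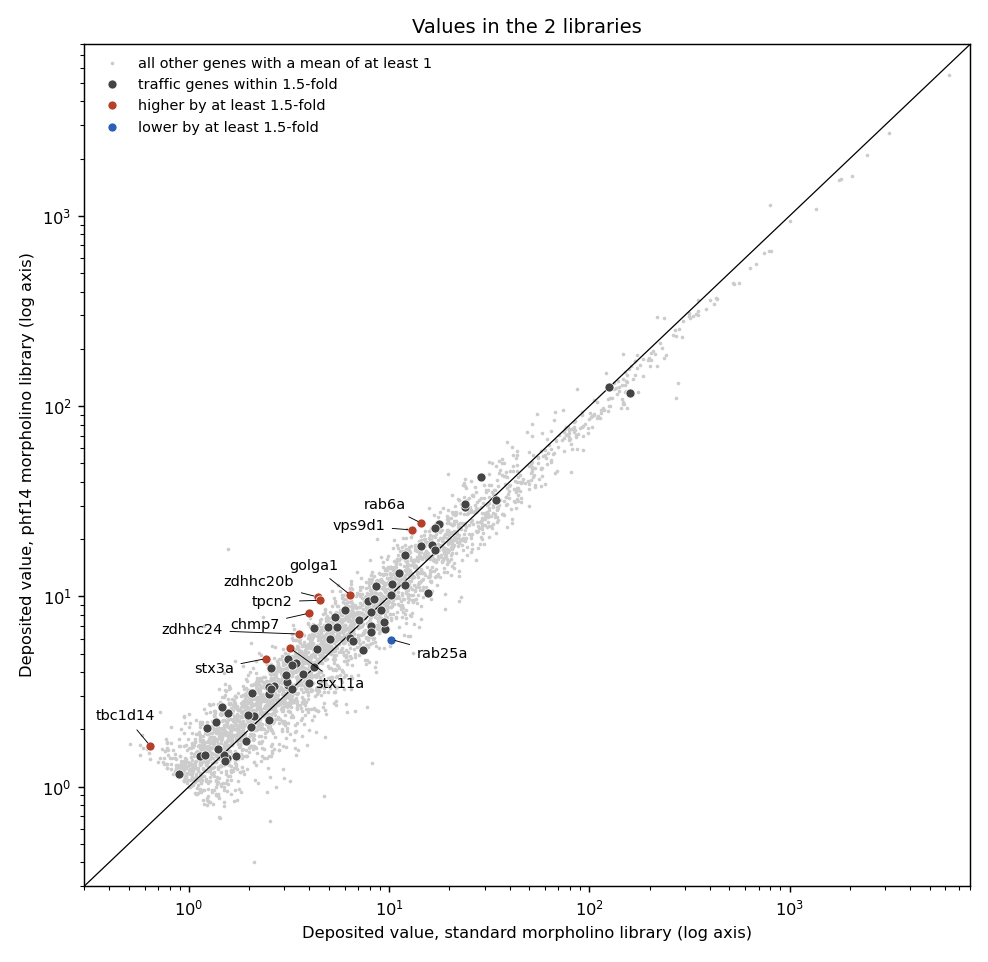
Deposited value of each gene in the standard (horizontal) and phf14 (vertical) morpholino library, both on log axes, with the diagonal marking equal values and genes listed at 0 left out. The 10 traffic genes higher by at least 1.5-fold lie above the diagonal at values from 0.64 to 24.28, and rab25a lies below it.

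Among the GTPases that mark compartments, rab25a and rab6a were furthest apart. Rab25 works at recycling endosomes of epithelial cells, and rab25a was at 10.27 with the standard and 5.93 with the phf14 morpholino. This was the lowest log2 ratio of the 81 genes, at -0.70, and 57th lowest of all 3524. Rab6 acts in transport at the Golgi, and rab6a went from 14.45 to 24.28 between the same libraries (0.71). rab5c, a GTPase of early endosomes, was at 28.88 and 42.27 (0.53), and rab11al, named for its likeness to the recycling GTPase Rab11a, at 1.23 and 2.03 (0.44). These last genes were within 1.5-fold on the log2 scale used, though rab5c passed it higher when centred on genes of like level.

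The remaining Rabs differed less. rab33ba, whose mammalian relative acts at the Golgi and in autophagosome formation, was at 3.44 and 4.44 (0.29). rab4a, of fast endosomal recycling, was at 2.52 and 3.07 (0.21), and rab20 at 1.97 and 2.39 (0.19). rab10, a GTPase of exocytic and basolateral transport, was at 124.97 and 125.75 (0.01). Slightly lower values were those of rab34a (34.15 and 32.26), rab35a (9.09 and 8.43) and rab42a (1.72 and 1.45). In all, 8 of the 12 Rabs (66.7%) were higher, near the 62.3% of all genes. Their median of 0.15 turned to -0.035 over the 6 with a mean of at least 5. Of the 12, 6 were above the median gene, since rab10 and rab15 (2.12 and 2.35) lay below it.

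The lower value of rab25a stood beside lower values of markers of the enveloping layer, an epithelium of the kind in which Rab25 is known to act. All 15 enveloping layer markers with a mean of at least 1 were lower in the phf14 morpholino library, against 37.2% of all genes. Their values summed to 2508 with the standard and 2013 with the phf14 morpholino, with a median log2 ratio of -0.33. tp63, the single listed marker with a mean under 1, was at 0.92 and 1.02. The marker lists were chosen with earlier results of these data known. Lower values were not particular to this layer. Markers of the yolk syncytial layer and of blastomeres with active zygotic genes were also mostly lower, with medians of -0.48 and -0.46. Oocyte supplied transcripts were mostly higher (0.52). The most abundant of 10 level bins of all genes, which holds many enveloping layer markers, had a median of -0.15. In whole-embryo RNA, fewer cells of a type and less RNA per cell cannot be told apart. Whether the enveloping layer had a part in the rab25a value was not tested.

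Among the TBC genes, tbc1d14 was past 1.5-fold. TBC1D14, which in mammals binds Rab11 and slows autophagosome formation, is encoded by tbc1d14, at 0.64 with the standard and 1.64 with the phf14 morpholino (0.69). Both values are low, and its log2 ratio ran from 0.24 to 1.23 with pseudocounts of 5 and 0.1. tbc1d25, which in mammals switches off Rab33B, was at 1.37 and 2.18 (0.42), and tbc1d30 at 2.65 and 3.37 (0.26). The lowest ratio was that of tbc1d20, an inactivator of Rab1 in mammals, at 1.55 and 1.42 (-0.08). tbc1d22a (6.36 and 6.02) and tbc1d32 (1.5 and 1.46) were also slightly lower. tbc1d9 was at 16.29 and 18.71 (0.19) and tbc1d12b at 1.40 and 1.57 (0.10). The 9 TBC genes had a median of 0.19, with 6 higher (66.7%, near the 62.3% of all genes) and 5 above the median gene.

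The Rab11 family interacting proteins, which link Rab11 to motors and membranes, numbered 3. rab11fip4b (0.19) and rab11fip5a, at 1.14 and 1.44 (0.19), had ratios above that of the median gene. rab11fip1b was at 2.03 and 2.07 (0.02) and lay below it.

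Along the early secretory route, the COPII genes had higher values and the COPI gene a lower one. COPII coats vesicles that leave the endoplasmic reticulum. Its inner coat genes sec23b and sec24c were at 6.0 and 8.51 (0.44) and at 17.80 and 23.93 (0.41). COPI coats vesicles that return to it, and the coat gene copz2 was at 8.07 and 6.95 (-0.19). tmed3, a p24 cargo receptor gene, was at 1.20 and 1.46 (0.16). All 4 were within 1.5-fold.

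At the Golgi, golga1 was the gene past 1.5-fold with the values as deposited, though under none of the 3 scalings. It encodes golgin-97, a tether of the trans-Golgi network, and was at 6.40 with the standard and 10.17 with the phf14 morpholino (0.59). golga4, also a trans-Golgi golgin gene, was at 5.47 and 6.88 (0.28), and golga3 at 3.70 and 3.90 (0.06, below the median gene). The TRAPP tether genes trappc5 and trappc6bl were nearly level, at 10.25 and 10.19 (-0.01) and at 11.98 and 11.42 (-0.06). Adaptor complex genes, which select cargo at the Golgi and endosomes, were split. ap4e1 of AP-4 was at 2.58 and 4.22 (0.54), and ap3s2 of AP-3 at 9.42 and 7.30 (-0.33). The exocyst tethers vesicles at the plasma membrane, and its genes exoc3 and exoc6b were at 14.44 and 18.31 (0.32) and at 11.19 and 13.28 (0.23).

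**Figure D3:**
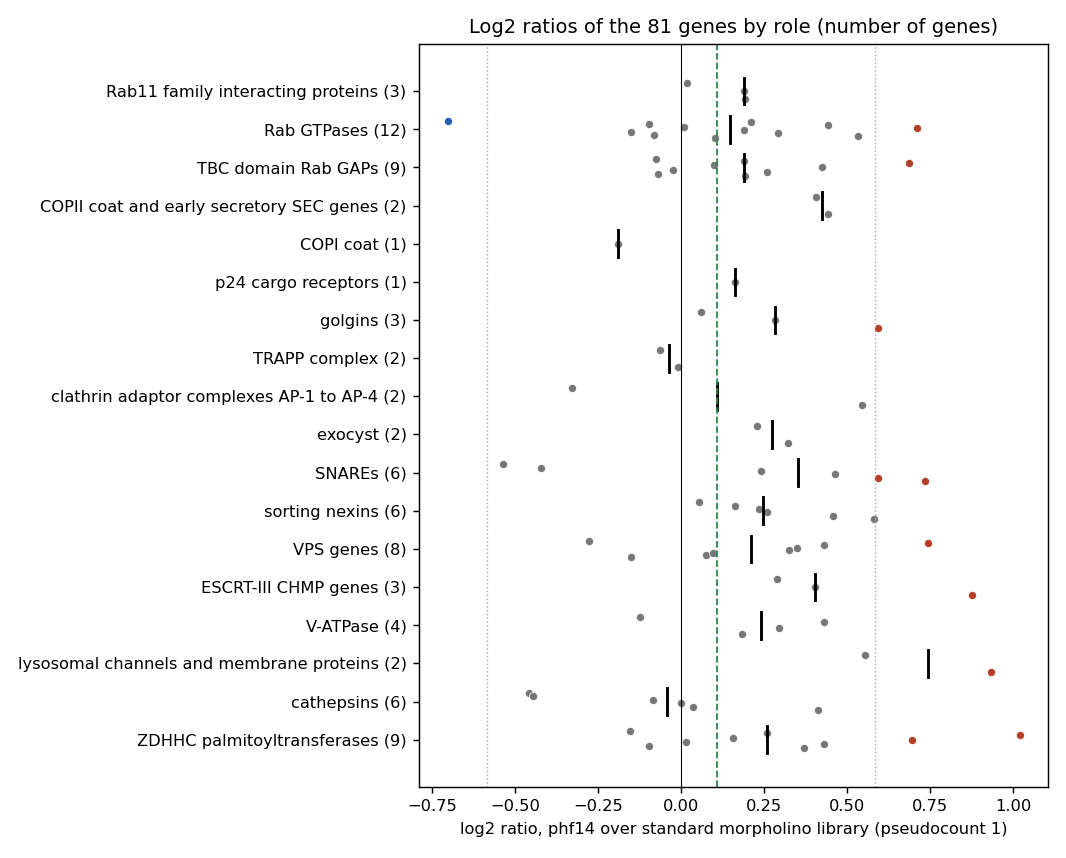
Log2 ratio of each of the 81 genes (horizontal axis) by role (rows, number of genes in parentheses), with black bars at the medians, a green dashed line at the median of all genes, 0.11, and dotted lines at 1.5-fold. Points past 1.5-fold are red (higher) or blue (lower). The SNARE row is split between both sides, and cathepsins lie mostly left of the green line.

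SNARE genes drive membrane fusion. The 6 chosen by the rule, all syntaxins, were split, with 4 higher (66.7%, near the 62.3% of all genes) and a median of 0.35. This median turned to -0.42 over the 3 whose mean is 5 or more. stx3a, which encodes a syntaxin of the apical plasma membrane, was at 2.43 with the standard and 4.71 with the phf14 morpholino (0.74). stx11a was at 3.20 and 5.34 (0.59). Both are past 1.5-fold with the values as deposited, and no other of the 6 syntaxin genes was. stx3a stayed past it when centred on the median gene and with the trimmed mean factor, and stx11a under none of the 3 scalings. The SNARE genes bet1l (0.74), gosr2 (0.54), bet1 (0.44) and gosr1 (0.16) lie outside the rule and were all higher, bet1l past 1.5-fold. stx17, of autophagosome fusion with lysosomes, was at 3.14 and 4.71 (0.46), and stx8, of late endosomes, at 7.82 and 9.43 (0.24).

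The other two stx11 genes went the opposite way. stx11b.1 was at 15.59 and 10.45 (-0.53) and stx11b.2 at 7.36 and 5.24 (-0.42). stx11b.1 passed 1.5-fold lower under all 3 scalings, and stx11b.2 when centred on genes of like level. The genes stx11b.1 and stx11b.2 lie next to each other in the gene order of the RefSeq annotation of GRCz12tu, and the counting of reads shared by such copies is not stated, so their separate values are uncertain.

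Sorting nexins bind endosomal membrane and return cargo from it. All 6 had higher values, as 62.3% of all genes did, and 5 were above the median gene, the exception being snx4 at 16.88 and 17.58 (0.06). snx17, which recycles surface receptors, was at 4.23 and 6.83 (0.58), just inside 1.5-fold. snx10a was at 5.38 and 7.77 (0.46). snx21, snx13 and snx11 had log2 ratios of 0.26, 0.24 and 0.16.

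The VPS symbols cover several complexes, and vps9d1 stood out among them. It encodes a protein with a VPS9 domain, the fold that activates Rab5-type GTPases, and belongs to none of the complexes that follow. Its values were 12.94 with the standard and 22.35 with the phf14 morpholino (0.74). vps50, of the EARP tether that recycles endosomal cargo, was at 2.06 and 3.12 (0.43). vps51, shared by EARP and the Golgi tether GARP, was at 3.29 and 4.37 (0.32), whereas vps52, shared by the same tethers, was at 8.09 and 6.51 (-0.28). The listed genes of one tether thus had ratios of opposite sign, all within 1.5-fold and with no replicate error.

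vps37b of ESCRT-I was at 23.89 and 30.68 (0.35). vps45, which binds syntaxins, was at 6.56 and 5.81 (-0.15). vps18, of the HOPS and CORVET tethers, was at 3.13 and 3.42 (0.10), and vps26bl, of retromer, at 7.07 and 7.51 (0.08), both below the median gene. Of the 8 VPS genes, 6 were higher (75%, against 62.3% of all genes), with a median of 0.21, and 4 were above the median gene.

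The 3 ESCRT-III genes all had higher values, as 62.3% of all genes did, and chmp7 alone was past 1.5-fold. CHMP7 recruits ESCRT-III to the reforming nuclear envelope, and chmp7 was at 3.99 and 8.16 (0.88), the 21st highest ratio of all 3524 genes. The core filament genes chmp4ba and chmp4c were at 16.95 and 22.74 (0.40) and at 23.84 and 29.38 (0.29). All 3 stayed above 0 under each scaling.

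**Figure D4:**
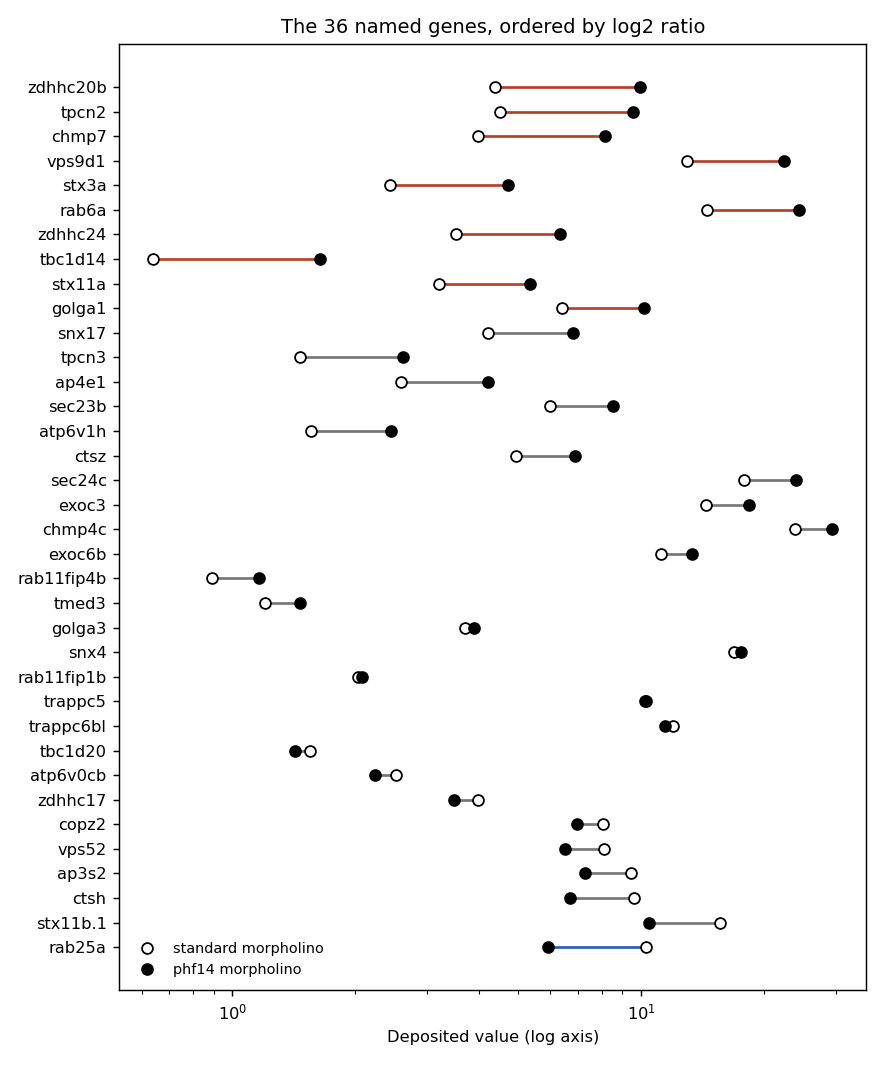
Deposited values (log axis) in the standard (open) and phf14 (filled) morpholino library for the 36 genes past 1.5-fold or at either end of their role, ordered by log2 ratio. Lines are red where the phf14 value is higher by at least 1.5-fold, blue where lower, and grey otherwise, and the filled points cross to the left of the open ones from trappc5 down.

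At the lysosome the channels and the proteases differed. tpcn2 encodes a cation channel of endosomes and lysosomes, and was at 4.51 with the standard and 9.53 with the phf14 morpholino (0.93, 16th highest of all genes). Its relative tpcn3 was at 1.46 and 2.61 (0.55). The V-ATPase genes were higher in 3 of 4 cases (75%, against 62.3% of all genes), with a median of 0.24. atp6v1h was at 1.56 and 2.45 (0.43), atp6v0a1a at 2.52 and 3.32 (0.30) and atp6v0a2b at 8.40 and 9.68 (0.18), while the proteolipid gene atp6v0cb was at 2.52 and 2.23 (-0.12). No V-ATPase gene was past 1.5-fold. atp6v0cb lies next to tbc1d24, at 5.07 and 5.94 (0.19), in the RefSeq gene order of GRCz12tu.

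Cathepsins, the lysosomal proteases, had a median of -0.04, and 5 of 6 lay below the median gene. ctsll was at 159.71 and 117.02 (-0.45) and ctsh at 9.58 and 6.71 (-0.46). ctsk (1.51 and 1.37), ctsl.1 (3.26 in both libraries) and ctsf (8.07 and 8.31) were nearly level. ctsz was the exception, at 4.93 and 6.90 (0.41). No cathepsin was past 1.5-fold with the values as deposited, whereas ctsll passed it lower with the trimmed mean factor and ctsh when centred on genes of like level. The most abundant of 10 level bins of all genes, which holds ctsll, had a median of -0.15. Yolk syncytial layer markers, from a cell layer that digests yolk, were lower in 7 of 8 cases, against 37.2% of all genes. These markers had sums of 528 and 385 and were chosen with earlier results known. Their part in the cathepsin values was not tested.

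ZDHHC enzymes attach palmitate to proteins, many of them carried on Golgi and plasma membranes, and gave the highest ratio of the 81 genes. zdhhc20b was at 4.39 and 9.93 (1.02), 11th highest of all genes and the single one of the 81 past 2-fold on the value + 1 scale. As plain ratios of the values, tbc1d14 (2.56), tpcn2 (2.11) and chmp7 (2.05) were also past 2. zdhhc24 was at 3.53 and 6.34 (0.70). zdhhc18a was at 8.55 and 11.35 (0.37), zdhhc8b at 3.05 and 3.85 (0.26) and zdhhc16a at 3.09 and 3.56 (0.16). zdhhc17 (3.99 and 3.49) and zdhhc9 (1.93 and 1.74) were slightly lower. The median of the 9 genes was 0.26, with 7 higher (77.8%, against 62.3% of all genes) and 6 above the median gene.

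The one pair of gene copies among the 81, by symbols that end in a and b, was zdhhc5a and zdhhc5b. zdhhc5a was at 11.96 and 16.48 (0.43) and zdhhc5b at 4.20 and 4.26 (0.02, below the median gene). The log2 ratios of this pair differed by 0.42, and reads could be split between such copies.

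Other traffic genes, taken from 8 lists set by symbol and leaving out the 81, gave a similar picture with fewer genes past 1.5-fold. Of 131 genes, 105 (80.2%) were higher, against 62.3% of all genes, with a median log2 ratio of 0.25, against 0.11. The counts of higher genes in each list below stand against the same 62.3%. Past 1.5-fold stood 7 higher (5.34%, against 4.97% of all genes) and 2 lower (1.53%, against 2.87%). The share past 1.5-fold higher was thus near that of all genes. Centred on the median gene, 3 were higher and 2 lower past 1.5-fold, against 2.36% and 4.97% of all genes.

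Rab regulators and effectors numbered 18, of which 14 were higher and 13 above the median gene, with a median of 0.29. Of these, 4 were past 1.5-fold higher (22.2%, against 4.97% of all genes), and 1, rabgap1l, when centred on the median gene. rabgap1l, a Rab inactivator gene, was at 3.95 and 7.15 (0.72). micall2b was at 4.79 and 8.19 (0.67), sgsm3 at 3.37 and 5.88 (0.65) and dennd2c, of a family of Rab activators, at 4.58 and 7.61 (0.63). The lowest was rabgap1l2, at 43.04 and 35.32 (-0.28).

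The list set by symbol for phosphoinositide enzymes, which help set the lipid identity of endosomes, was higher in 13 of 14 cases. Of these, 12 were above the median gene, and the median of the list was 0.31. The entries were not checked for enzyme activity or for action at endosomes. mtmr14, a phosphoinositide phosphatase gene, was at 2.35 and 7.78 (1.39), and the next highest log2 ratio of the list was 0.42. The lowest was mtmr12, at 5.41 and 5.38 (-0.01). A mixed list of endoplasmic reticulum and Golgi genes, which also holds Arf-like GTPases, regulators of Arf GTPases and CREB3 family transcription factors, was higher in 26 of 32 cases. Its median was 0.27, with 24 genes above the median gene. The genes ran from the SNARE gene bet1l at 3.91 and 7.21 (0.74) down to arl6ip5a at 20.38 and 13 (-0.61).

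The list set for clathrin and endocytosis was higher in 12 of 13 cases with or without each scaling, with a median of 0.27, and none was past 1.5-fold. It is mixed, holds no clathrin chain gene, and includes dnm1l and strip2 by symbol alone. Its genes ran from washc5, of the WASH complex that builds actin on endosomes, at 2.88 and 4.66 (0.54) to the arrestin gene arrb2b at 6.37 and 5.64 (-0.15). The list of lysosomal enzymes and membrane proteins was higher in 18 of 23 cases, with a median of 0.21. In 15 of those cases the ratio was above that of the median gene. This list is also mixed, with subunit genes of the AP-5 adaptor, BLOC-1 and HPS complexes and the transcription factor genes tfec and tfe3a. laptm4b, a lysosomal membrane protein gene, was at 3.77 and 6.25 (0.60). tfec, a transcription factor of the family that includes the lysosomal regulator TFEB, was at 9.46 and 5.37 (-0.72). All 12 autophagy genes were higher, with a median of 0.12, but only 6 to 8 were above 0 under the scalings. They ran from map1lc3c, a gene of the autophagosome coat protein LC3, at 36.79 and 52.55 (0.50) to atg5 at 9.72 and 10.12 (0.05).

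The medians of the receptor list and of the early ESCRT list stayed near 0. The receptor list also holds the tetraspanin genes cd81a, cd9a, tspan9b, tspan17 and tspan35. Its 12 genes split into 6 higher and 6 lower, with a median of 0.10. They ran from the transferrin receptor gene tfr1b at 1.32 and 2.08 (0.41) to the sortilin gene sort1b at 8.27 and 5.96 (-0.41). The list of early ESCRT and ubiquitin sorting genes had 7 entries and a median of 0.00. It ran from stam at 12.21 and 15.29 (0.30) to stambpl1 at 8.68 and 6.92 (-0.29). Its ESCRT subunit genes were stam, tsg101a and mvb12ba, and none was of ESCRT-II. The other entries, stambpa, stambpl1 and those of tom1l2, belong to ubiquitin sorting. With ratios centred on the median gene both medians were below 0.

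**Figure D5:**
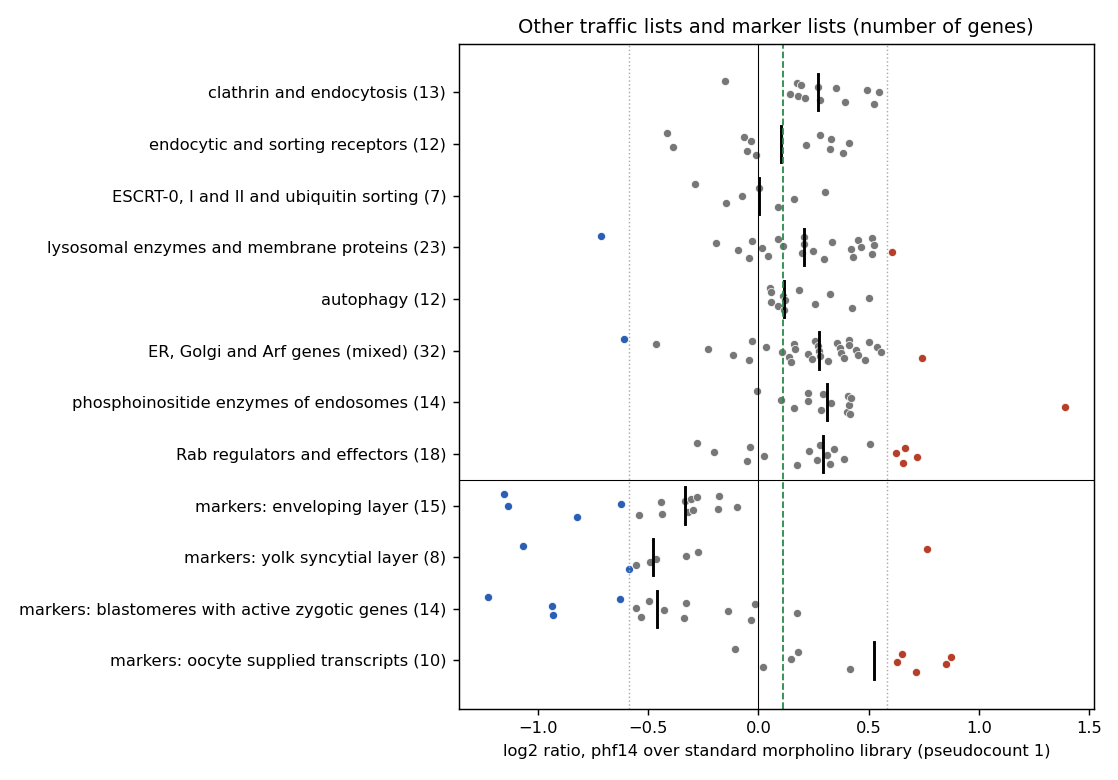
Log2 ratio (horizontal axis) of genes in 8 other traffic lists (above the line) and 4 marker lists (below it), with black bars at the medians, a green dashed line at the median of all genes and dotted lines at 1.5-fold. Traffic lists have medians from 0.00 to 0.31, oocyte markers 0.52, and the other marker lists between -0.48 and -0.33.

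The medians of the marker lists lay further from 0 than that of the traffic genes. Against genes of like level, they were -0.28 for the enveloping layer, -0.33 for the yolk syncytial layer, -0.41 for blastomeres and 0.44 for oocyte transcripts. The traffic genes were at 0.08 in this measure. The lists were chosen with earlier results of these data known, so they are no independent yardstick. Of 14 genes of blastomeres with active zygotic genes, 13 were lower in the phf14 morpholino library, against 37.2% of all genes. They had sums of 1215 and 1043 and a median of -0.46 over the 14, from her7 (-1.23) to gsc (0.17). Of 10 oocyte supplied transcripts, 9 were higher (sums of 124 and 179, median 0.52), from btg4 (0.87) to org (-0.11). Traffic genes were mostly higher, the direction of the oocyte list, but so were all genes, of which 62.3% were higher. The traffic median lay 0.08 above that of all genes, and the oocyte median 0.41 above it. Whether the balance of stored and newly made RNA had a part in the traffic values was not tested.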

How the data were processed

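For each library the authors deposited a table whose rows carry an Ensembl identifier, a symbol and an expression signal. Per the file headers no unit is named, and the values have at most 2 decimals, so the signal was treated as normalised with an unstated scale. The sources used here do not name the aligner, build, annotation or scaling, and with unknown depth no counting interval could be given. Per the labels' protocols, an Illumina TruSeq RNA kit was used on 1 ug of total RNA.

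Rows were matched by position, where symbols are identical. Of the 81 genes, 80 have an identifier and 79 were found in the gene name table. The genes, roles and lists were chosen with earlier results of these data known. The rule names genes past 1.5-fold, both ends of each role and list, the pair of copies and the genes nearest the minimum mean, and other values are printed to account for the remaining genes. With 1 library per group there is no test. Log2 ratios used a pseudocount of 1. Alternatives were centring on the median gene or on the median of 10 bins of like level, a trimmed mean factor, pseudocounts of 0.1 and 5, a mean of at least 5 and no filter. The scripts were tested on simulated data. Calculations used Python 3.11.15, numpy 2.4.6 and pandas 2.3.3.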

Additional observations from a re-analysis of the deposited data

How the results depend on the processing

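No paired analysis was possible because the design holds a single library for each morpholino, which also leaves none to drop. Against 10 traffic genes higher and 1 lower past 1.5-fold, and 1 higher past 2-fold, a pseudocount of 0.1 gave 16, 1 and 4, and a pseudocount of 5 gave 4, 0 and 0. For the pseudocounts the shares of all genes past the same fold were not computed, so these counts have no background beside them. Centring on the median gene gave 7, 2 and 0, the trimmed mean factor 6, 3 and 0, and centring on genes of like level 6, 4 and 0. Of the 43 genes with a mean of 5 or more, these counts were 6, 1 and 1. Of all genes of that level, 5.53% were past 1.5-fold higher and 3.21% lower. With no filter the traffic counts stayed at 10, 1 and 1. No gene was past 2-fold lower under any alternative. The median of 0.19 became 0.13 with a pseudocount of 5, 0.084 centred on the median gene, 0.083 centred on like levels and 0.10 with the trimmed mean factor.

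Of the 81 genes, those above 0 went from 59 to 49 when centred on the median gene and to 51 with each of the other scalings, and those that crossed in the first case had log2 ratios of at most 0.10 as deposited. None of the 11 past 1.5-fold changed sign. Of these 11, 3 stayed past it under all 5 scale and pseudocount alternatives, namely zdhhc20b, tpcn2 and vps9d1. chmp7 reached 0.55 and rab25a -0.48 with a pseudocount of 5.

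Medians of roles with at least 3 genes were set against the SD among their genes. Those of the Rab11 family interacting proteins moved by more, to 0.31 and 0.065 with pseudocounts of 0.1 and 5 and to 0.080 with either centring. With a mean of at least 5 the medians changed sign for Rab GTPases (-0.035, 6 genes) and SNAREs (-0.42, 3 genes). Other medians kept their sign but ran widely: TBC genes from 0.01 to 0.20, VPS genes from 0.06 to 0.24, golgins from 0.10 to 0.44, ZDHHC genes from 0.09 to 0.43, sorting nexins from 0.10 to 0.31, V-ATPase genes from 0.10 to 0.29, CHMP genes from 0.27 to 0.42 and cathepsins from -0.20 to -0.02. The mean of the 3 CHMP genes, in place of their median, was 0.52.

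Alternatives for the 8 other lists were added after the data had been seen. Signs changed for the list of receptors and tetraspanins, at -0.0067 and -0.035 when centred on the median gene and on like levels. With a mean of at least 5 this list was at -0.043. Signs also changed for the early ESCRT and ubiquitin sorting list (-0.11 and -0.014 when centred in these ways, -0.12 with the trimmed mean factor). The autophagy list changed sign on like levels (-0.0084). For all of these the cause was not tested. At the higher minimum mean the lists also held fewer genes. Unknown depth and single libraries limit every value.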
